A study of Homo sapiens with 9 samples.

Results

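The clustered protocadherins are cadherin-like adhesion proteins encoded by the PCDHA, PCDHB and PCDHG gene clusters, which lie side by side on the long arm of human chromosome 5. They were taken here as the region given for the clusters, chromosome 5 from 140160001 to 140900000 (hg19), with 1 Mb on each side as flanks. The region was covered by 15 of 56728 windows of 50 kb kept in the whole data set, running from 140150001 to 140900000, and by 74 of 283570 windows of 10 kb. No window of the region or of its flanks, 20 on each side, was lost to the filter on low reads. RefSeq (GRCh38.p14) lists 53 protein-coding members, 15 of PCDHA, 16 of PCDHB and 22 of PCDHG, and 6 pseudogenes.

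Nascent DNA was sequenced from RPE1, a telomerase-immortalised line of human retinal pigment epithelial cells, and from HCT116, a human colorectal carcinoma line, both grown without any treatment named in the labels. EdU, a thymidine analogue built into new DNA, was given as a pulse to cycling cells, which were sorted into early, mid and late S phase before the marked DNA was pulled down. RPE1 had 2 sets of 3 libraries and HCT116 had 1 set, and nothing in the labels says that the RPE1 sets came from separate cultures. The HCT116 labels number the mid and late libraries as replicate 2 and the early library not at all. The tables do not name their count columns, so the 3 libraries of a set are called A, B and C by position, and none was given to an S phase fraction. Library totals ran from 6170299 to 22930078 reads, and the sets held 35891538, 55421713 and 27519669 reads in RPE1 set 1, RPE1 set 2 and HCT116. HCT116 has 1 set, so the lines could not be tested against each other. The difference between the RPE1 sets was used as the only replicate error, and all comparisons here are descriptions without a p-value.

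Each neuron expresses a small choice of clustered protocadherins, and the resulting code lets a neuron tell its own branches from those of other cells. In the PCDHA and PCDHG clusters each variable exon has its own promoter and is spliced to constant exons shared by the cluster, while PCDHB genes are single-exon genes. Most of these promoters carry a conserved element with the core CGCT, where the insulator protein CTCF binds and folds the promoter towards distant enhancers. The last genes of PCDHA (PCDHAC1, PCDHAC2) and PCDHG (PCDHGC3 to PCDHGC5) form a C-type subgroup that is expressed less selectively. DNA replication in S phase runs in domains of many genes, and the time at which a domain is copied can differ between cell types.

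Promoter sequences are shown for a gene at the start of PCDHA, at the end of PCDHB, and for a C-type gene of PCDHA and of PCDHG, since the C-type and other promoters differ in base composition. Each is the 250 bases before the most upstream RefSeq start (GRCh38.p14, plus strand), with CGCT and its reverse complement AGCG in capitals. They lie at chr5:140785890-140786139, chr5:140966226-140966475, chr5:141245145-141245394 and chr5:141475716-141475965, in the order shown.
PCDHA1: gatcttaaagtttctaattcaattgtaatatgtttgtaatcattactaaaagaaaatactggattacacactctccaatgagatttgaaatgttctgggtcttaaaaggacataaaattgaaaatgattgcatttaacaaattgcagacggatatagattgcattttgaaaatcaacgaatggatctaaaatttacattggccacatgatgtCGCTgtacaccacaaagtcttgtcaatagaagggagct
PCDHAC2: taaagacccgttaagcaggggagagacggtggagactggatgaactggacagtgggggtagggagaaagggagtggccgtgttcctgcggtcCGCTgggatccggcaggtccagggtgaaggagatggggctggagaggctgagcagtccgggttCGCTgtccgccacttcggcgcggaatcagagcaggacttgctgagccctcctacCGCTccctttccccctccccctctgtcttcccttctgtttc
PCDHB15: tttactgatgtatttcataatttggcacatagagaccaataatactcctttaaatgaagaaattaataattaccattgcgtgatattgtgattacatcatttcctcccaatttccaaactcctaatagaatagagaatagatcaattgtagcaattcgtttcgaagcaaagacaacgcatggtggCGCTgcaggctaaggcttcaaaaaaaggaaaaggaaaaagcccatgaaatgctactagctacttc
PCDHGC3: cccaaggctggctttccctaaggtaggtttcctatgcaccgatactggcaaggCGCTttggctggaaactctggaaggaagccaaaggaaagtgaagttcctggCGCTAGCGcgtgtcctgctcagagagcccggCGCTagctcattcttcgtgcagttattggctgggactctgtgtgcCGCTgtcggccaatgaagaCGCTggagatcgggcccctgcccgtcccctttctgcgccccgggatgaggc

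The protocadherin promoters were poor in G and C bases, apart from those of the C-type genes. A promoter was found for 47 of the 53 protein-coding members. Their median content of G and C was 37.6%, against 57.6% over the promoters of 27305 genes in the same table, of which 9.36% were below the protocadherin median. The 4 C-type promoters found, of PCDHAC1, PCDHAC2, PCDHGC3 and PCDHGC4, had 57.6 to 63.2%. The other 29 promoters of PCDHA and PCDHG had 30 to 48.8%, and the 14 of PCDHB had 30.8 to 44.8%, so neither range reached that of the C-type genes. CGCT on either strand was present in 45 of 47, against 64.2% of all promoters. On the coding strand the match nearest the start lay a median of 48 bases before it, and 44 of the 47 had a match within 100 bases, against 28.0% of all promoters. This distance was looked at after the sequences had been seen, and a match is no evidence of binding in these lines. A 50-base word, the read length, shared with the promoter of another gene was found in 2 of the 47, PCDHGB4 and PCDHGB5, which shared 5 of 201 words with each other.

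**Figure D1:**
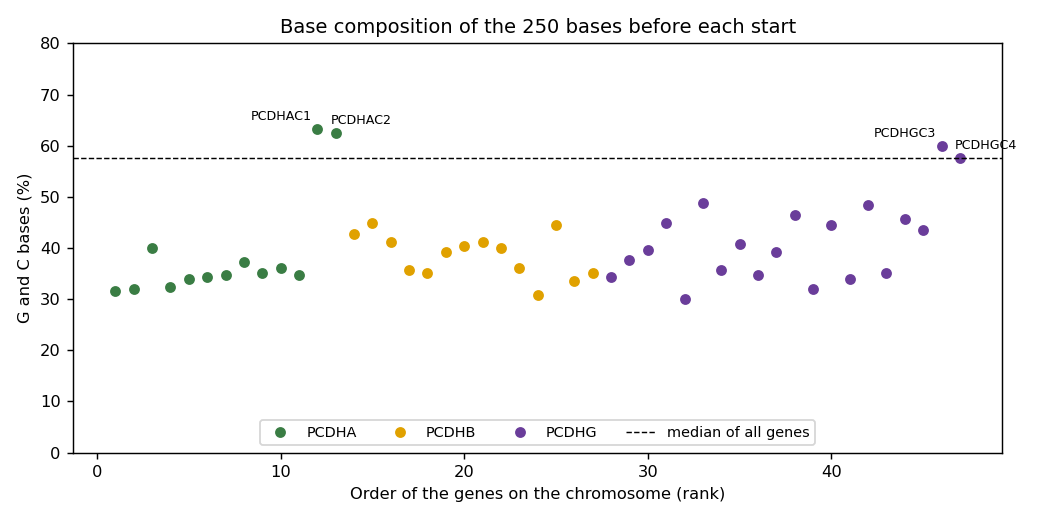
Share of G and C bases (y axis, %) in the 250 bases before the start of each of 47 clustered protocadherin genes, in their order on the chromosome (x axis). The 4 labelled C-type genes sit at 57.6 to 63.2%, and every other gene lies below the dashed median of all genes, 57.6%.

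In both lines the protocadherin clusters stood apart from the DNA around them, and they did so in different ways. In RPE1 library A held the largest share of the flanks, and libraries B and C held larger shares of the clusters than A. In HCT116 library A also held the largest share of the flanks, while the clusters were shared by libraries A and B, with more of B and less of A than the flanks and no detectable difference in C. Libraries were scaled to equal totals, so that an even mix would have equal shares. The letters of different sets are set side by side below and give position only.

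In RPE1 set 1, library A held 57.6% of the scaled reads of the flanks and 24.99% of those of the clusters (95% exact binomial interval 24.1 to 25.9%). Library C held 4.56% of the flanks and 39.8% of the clusters (38.8 to 40.8%), and library B held 37.8 and 35.2%. The intervals cover counting error only, and reads are not independent molecules. RPE1 set 2 had 57.5% of the flanks and 24.3% of the clusters in library A (23.7 to 25.01%), 16.8 and 36.5% in library C, and 25.7 and 39.1% in library B. Both RPE1 sets thus had less of A and more of C in the clusters than in the flanks. For library B the sets did not run the same way, with a difference of clusters minus flanks of -2.59 points in set 1 and 13.4 points in set 2.

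In HCT116, library A held 58.5% of the scaled reads of the flanks and 38.8% of those of the clusters (37.6 to 39.96%), from 7338 reads. Library B held 24.7% of the flanks and 44.8% of the clusters (43.6 to 45.9%). Library C held 16.8% (16.2 to 17.5%) and 16.4% (15.4 to 17.5%), a difference within counting error. In HCT116 a difference between clusters and flanks was thus seen in A and B and was not detectable in C at this depth.

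**Figure D2:**
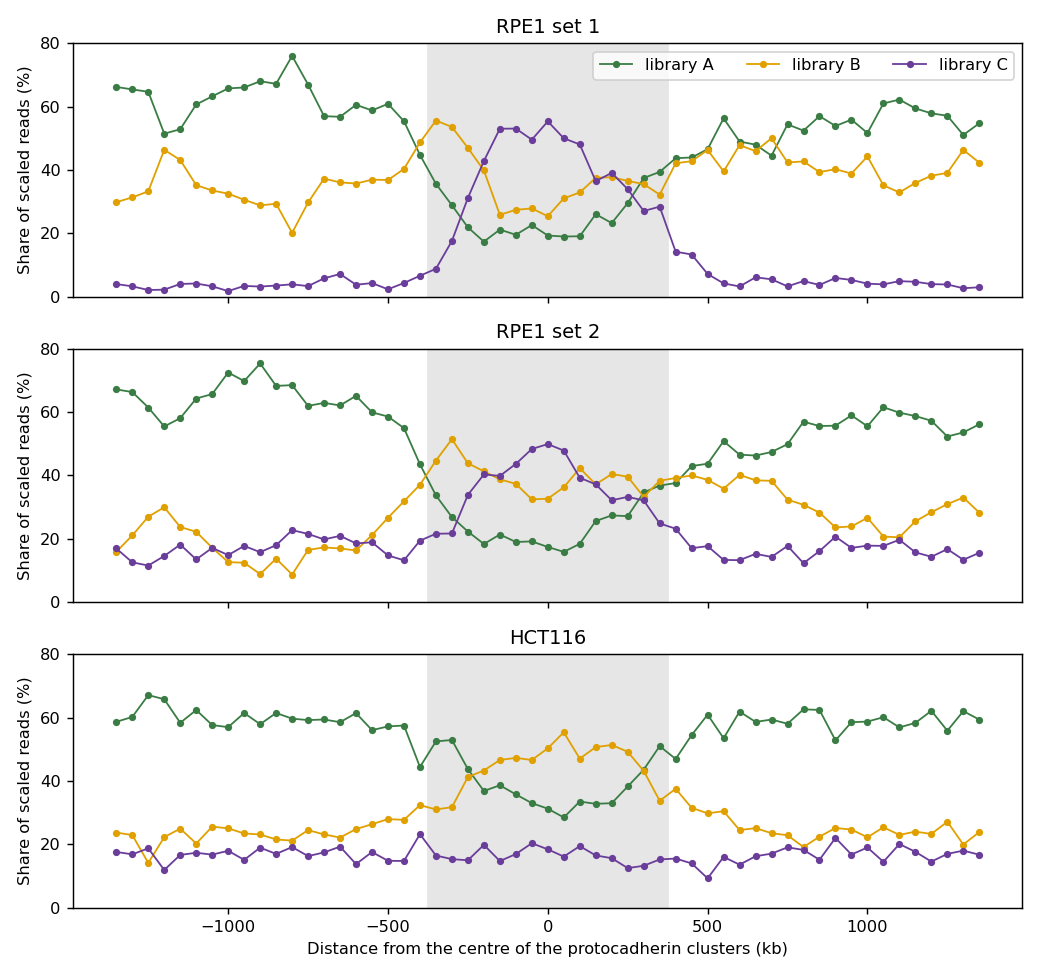
Share of scaled reads (y axis, %) in libraries A, B and C over 50 kb windows, by distance from the centre of the protocadherin clusters (x axis, kb), with a panel for each set and the clusters in grey. In both RPE1 sets C is highest in the middle of the clusters, at 55.4 and 49.9%, while in HCT116 B reaches 55.4% and C is at or below 20.3% in the clusters.

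Window by window, the ends of the region were closer to the flanks than its middle in HCT116. The windows from 140150001, 140200001 and 140850001 had 52.5, 53.0 and 51.03% of A and 31.0, 31.7 and 33.8% of B there. Library A led 38, 39 and 40 of the 40 flank windows in RPE1 set 1, RPE1 set 2 and HCT116. Across the data set it led 27.6, 31.5 and 33.0% of windows. Of the 15 cluster windows, A led 2, 1 and 5, B led 5, 9 and 10, and C led 8, 5 and 0. Over all windows B led 30.4, 31.1 and 32.7%, and C led 42.0, 37.4 and 34.3%. In HCT116, B held at least 45% in 9 of the 15 cluster windows and in 0 of the 40 flank windows, against 20.5% of all windows.

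The middle of the region was farthest from the flanks in every set. RPE1 set 1 had its highest share of C, 55.4%, in the window from 140500001, where RPE1 set 2 also had its highest, 49.9%. HCT116 had its highest share of B, 55.4%, and its lowest of A, 28.5%, in the next window, from 140550001, and RPE1 set 2 had its lowest share of A there, 15.9%. In RPE1 set 1 the lowest share of A was 17.3%, from 140300001. Windows of 10 kb held a median of 126.5, 181 and 97 reads in the clusters, in the same order of sets. HCT116 was led by B in 57 of 74 and by A in 17, and C led none of them. RPE1 set 1 was led by C in 43 and by B in 25, while RPE1 set 2 was led by C in 33 and by B in 37. Of 100 windows in each flank, left and right, A led 89 and 85 in RPE1 set 1. It led 99 and 90 in RPE1 set 2, and 100 and 99 in HCT116. Leads over all 10 kb windows were not counted.

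Shares at 10 kb covered a wide range inside the region. The RPE1 mean of C was highest from 140390001 to 140400000, with 64.9% (55.8 to 73.5%) in set 1 and 48.6% (41.1 to 56.2%) in set 2, and lowest from 140170001 to 140180000, with 9.07 and 16.3%. That same window, at the PCDHA end of the region, had the highest share of A in HCT116, 61.2% (49.4 to 72.0%) of 76 reads. The lowest share of A in HCT116 was 18.7% (10.7 to 29.0%), from 140560001 to 140570000, and in RPE1 it was 11.2 and 12.6%, from 140420001 to 140430000. The RPE1 mean of A was highest from 140830001 to 140840000, with 46.3% in set 1 and 42.2% in set 2. In set 1 alone the highest share of A was 49.5%, from 140880001 to 140890000. Library C of HCT116 ran from 6.08% (1.70 to 14.6%), from 140850001 to 140860000, to 30.5% (19.999 to 42.5%), from 140330001 to 140340000. At fewer than 100 reads a window, these HCT116 values have wide intervals.

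The width of the region was read from library A. The level midway between the flank median and the lowest cluster window was 37.2 and 37.1% of A in the RPE1 sets, and 43.6% in HCT116. The stretch below it ran from 140150001 to 140800000 in RPE1 set 1, 650 kb, and from 140150001 to 140900000 in RPE1 set 2, 750 kb. In HCT116 it ran from 140300001 to 140850000, 550 kb. The RPE1 sets differed by 100 kb, as much as the gap between HCT116 and the nearer of them. Their difference rests partly on near-ties. The window from 140800001 had 37.45% of A in set 1, just above the level. The window from 140850001 had 36.8% in set 2, just below it. At the PCDHA end, HCT116 windows from 140150001 and 140200001 still had 52.5 and 53.0% of A, where RPE1 had 35.6 and 28.8% in set 1 and 33.7 and 26.9% in set 2.

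Within each set separately, the log2 scaled reads, centred within a window, were summarised by the direction of greatest variance over the autosomes (first principal component). This is called the leading axis and is given in autosomal SD. The axes are not the same contrast in each set. For A, B and C the weights were -0.52, -0.29 and 0.81 in RPE1 set 1, and -0.75, 0.105 and 0.649 in RPE1 set 2. In HCT116 they were -0.58, -0.21 and 0.79. A was weighted negatively and C positively throughout, while B changed sign between the RPE1 sets, so differences between sets on this axis compare places along unlike axes.

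On this axis the protocadherin clusters lay above their flanks in RPE1. The 15 windows had a mean of 0.464 in RPE1 set 1 and 0.353 in RPE1 set 2, 0.408 ± 0.078 (SD, n = 2). Their median was above 59.8 and 57.4% of autosomal windows in sets 1 and 2, so the clusters were not extreme among the autosomes. The left flank had means of -1.28 and -1.30 and the right flank of -1.09 and -1.08. The clusters were thus 1.75 and 1.66 SD above the left flank and 1.55 and 1.44 SD above the right flank. In RPE1 set 1 cluster windows ran from -0.63 to 0.913 with a median of 0.538, and flank windows from -1.72 to -0.36. Set 2 had -0.38 to 0.970 in the clusters and -1.63 to -0.44 in the flanks. Cluster and flank windows overlapped in set 1 through 1 cluster window, from 140150001, and did not overlap in set 2. How often other autosomal blocks are as separate from their flanks was not counted.

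In HCT116 the clusters had a mean of -0.83, against -0.96 in the left and -1.004 in the right flank. The 15 cluster windows ran from -1.16 to -0.49 and lay within the range of the 40 flank windows, -1.71 to -0.48. On the leading axis alone, the clusters of HCT116 were thus 0.124 and 0.169 SD above the flanks, while their library shares differed from those of the flanks by -19.7 points for A and 20.1 points for B. Among 22160 autosomal windows of HCT116 in the same range of the axis, library B had a median of 34.6%, and 24.1 to 50.0% from the 10th to the 90th percentile. The median of the protocadherin windows, 46.6%, was above 81.0% of these windows and inside that spread. The median of all 40 flank windows, 23.9%, was just below it, though some flank windows lie outside this range of the axis.

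**Figure D3:**
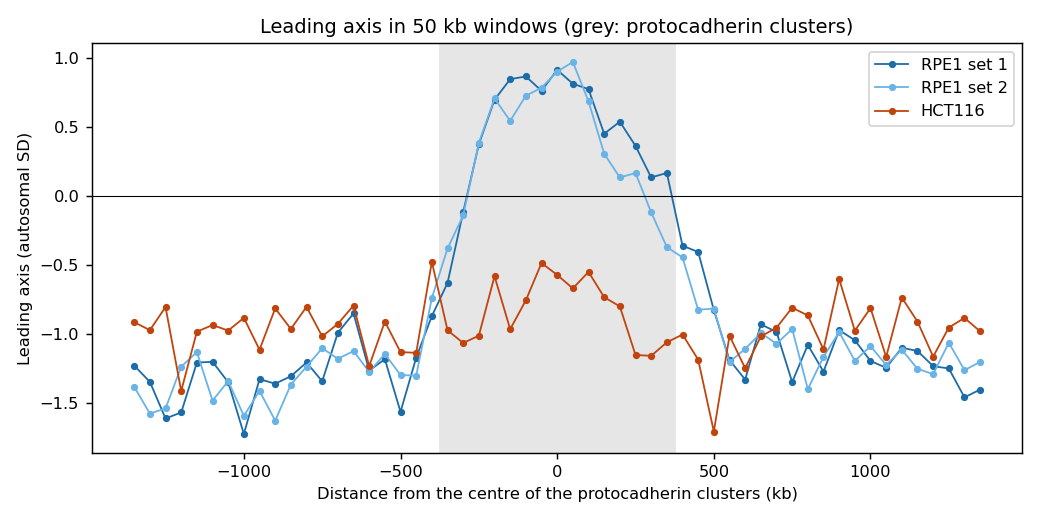
Leading axis (y axis, autosomal SD) in 50 kb windows by distance from the centre of the protocadherin clusters (x axis, kb), with the clusters in grey and a line for each set. Both RPE1 sets climb from means of -1.28 and -1.30 in the left flank to a highest window of 0.913 and 0.970, while HCT116 is at or below -0.48 throughout.

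By the rule given below, the lines were called apart at 50 kb over most of the region and in none of the flank windows. At 10 kb a few flank windows were called. The leading axis of HCT116 was lower than that of RPE1 by 1.24 SD over the 15 windows (-0.83 against 0.408 ± 0.078), while set 2 minus set 1 of RPE1 averaged -0.11 SD there. A window was called when HCT116 lay 1 SD or more to the same side of both RPE1 sets. HCT116 was called below RPE1 in 11 of the 15 cluster windows and above it in 0, and in 0 of the 40 flank windows in either direction. In those flank windows HCT116 minus the RPE1 mean still ran from -0.885 to 0.775 SD. A call below was out of reach in most of them. The RPE1 sets averaged -1.28 and -1.30 in the left flank and -1.09 and -1.08 in the right. The lowest autosomal window of HCT116 lay at -2.005. For calls below, the flanks are thus no fair contrast to the clusters. Over all windows 11.0% were called, 7.78% below and 3.26% above. The called windows formed a run of 9 from 140250001 to 140700000 and a pair from 140750001 to 140850000. With axis values replaced by normal ranks, 40% of the cluster windows were called, against 6.04% of all windows. At a threshold of 0.5 SD, 93.3% were called, against 19% of all windows, and at 1.5 SD 6.67%, against 2.09%.

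The largest difference was in the window from 140350001, where RPE1 had 0.846 and 0.544 and HCT116 -0.96. The window highest in RPE1, from 140500001, had 0.913 and 0.901 in RPE1 against -0.57 in HCT116. The windows that were not called lay at both ends and at 140700001. The window from 140150001, at the PCDHA end, had -0.63 and -0.38 in RPE1 and -0.97 in HCT116, and was the lowest of the region in RPE1. HCT116 was highest from 140450001, at -0.49, and lowest from 140800001, at -1.16. The RPE1 sets differed most from 140850001, the last window, with 0.167 and -0.37. Windows of 10 kb gave 45 of 74 called below and 0 above, against 7.90% of all 10 kb windows below. In the left flank 0 of 100 were called below and 4 above, and in the right flank 3 of 100 below and 0 above. Both flanks thus had fewer calls below RPE1 than all 10 kb windows had, but low RPE1 values there leave little room for such calls. The share of all 10 kb windows called above was not counted.

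**Figure D4:**
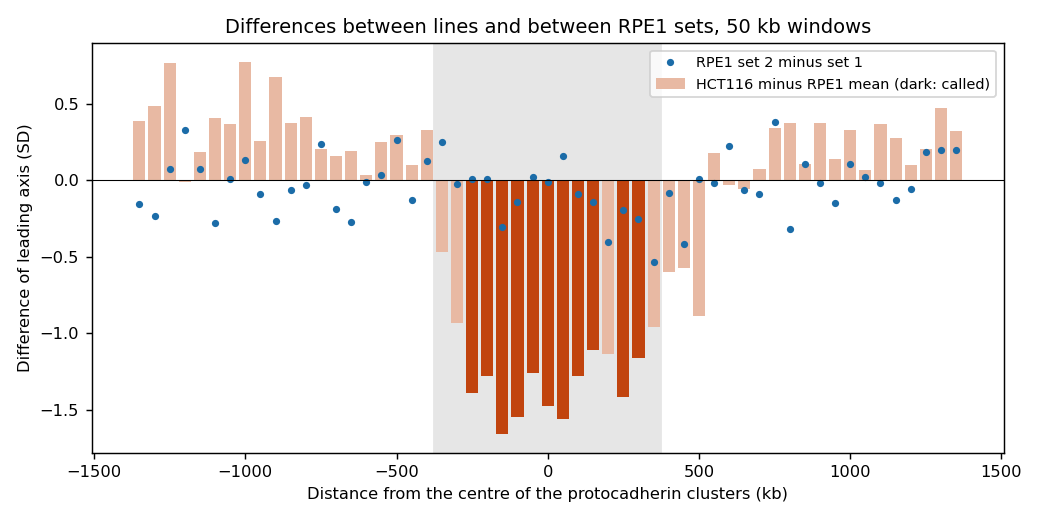
Difference of the leading axis (y axis, SD) in 50 kb windows by distance from the centre of the protocadherin clusters (x axis, kb). Bars give HCT116 minus the RPE1 mean, dark where called, and points give RPE1 set 2 minus set 1. The 11 dark bars all point down and lie in the grey clusters, where the points stay within 0.537 SD of 0.

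The flanks themselves were unlike in RPE1, with library A at 53.0% ± 0.60 (SD, n = 2) over the right flank, beyond PCDHG, and 62.2% ± 0.84 over the left, before PCDHA. In HCT116 the flanks had 58.8% on the left and 58.1% on the right. The largest step between neighbouring windows was -0.53 SD in RPE1 set 1, from 140850001 to 140950000 at the PCDHG end, and 0.561 SD in RPE1 set 2, from 140050001 to 140150000 before PCDHA. HCT116 had its largest, 0.693 SD, outside the clusters, from 141000001 to 141100000. The sets did not share the place of the largest step, and median steps in the region were 0.150, 0.158 and 0.183 SD.

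Within the clusters the 3 stretches of 5 windows had unlike values. In the first 5 windows, which begin with PCDHA, B was the largest share in RPE1 at 43.5% ± 0.84, with 32.1% ± 1.02 for C. In the middle 5, C was the largest at 48.6% ± 3.74. In the last 5, which end with PCDHG, B had 36.8% ± 1.17, C 32.4% ± 0.65 and A 30.9% ± 0.51. HCT116 had A at 44.6, 32.5 and 40.1% and B at 39.1, 49.3 and 45.4% in the same stretches. The genes are ordered PCDHA, PCDHB, PCDHG, with SLC25A2, a mitochondrial carrier, and TAF7, a subunit of the general transcription factor TFIID, between PCDHB15 and PCDHGA1. ZMAT2 is the nearest protein-coding gene before PCDHA1 and DIAPH1, an actin-nucleating formin, the nearest after PCDHGC5. No gene was placed on a window, since no hg19 annotation was used here.

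Stretches of this kind were compared across the autosomes. The distance between the library shares of a block and its flanks, which is the sum of the share differences in 1 direction and was chosen after the data were examined, was 33.7 and 33.5 points in RPE1, against 20.04 points in HCT116. Over 3157 other blocks of 15 windows with complete flanks, the median was 11.9, 10.0 and 8.82 points, and 95.3, 99.4 and 92.4% of blocks had less than the protocadherin clusters. A block at least 0.5 SD above both flanks on the leading axis in both RPE1 sets was found in 6.34% of blocks, 200 in number, and the protocadherin clusters met this rule. Among these 200 like blocks the median distance was 30.8, 23.1 and 14.4 points, and 124, 195 and 138 of them had less than the clusters in RPE1 set 1, set 2 and HCT116. HCT116 met it in 80 of those 200 blocks and in 5.86% of all blocks, and not at the protocadherin clusters. The rule for all 3 sets in the same direction was met by 5.13% of blocks and not by the clusters.

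**Figure D5:**
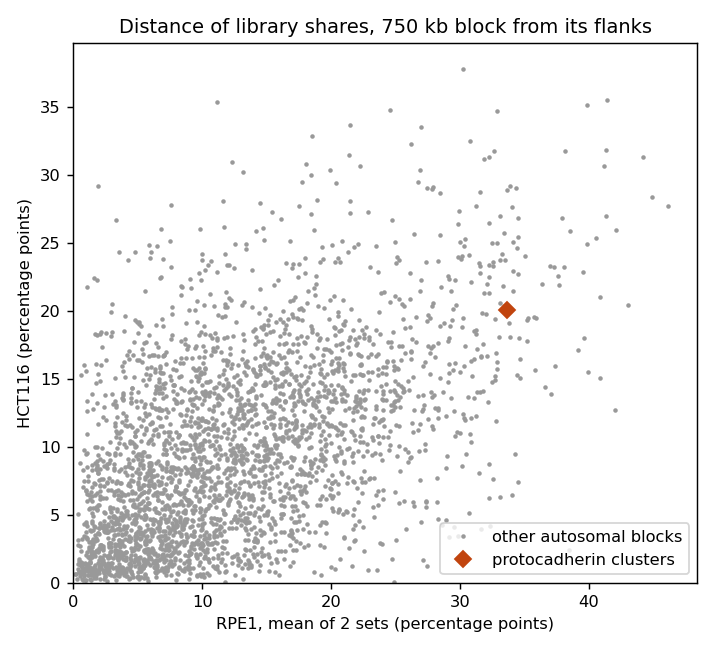
Distance of library shares between a block of 15 windows and its flanks (percentage points) in RPE1 (x axis, mean of 2 sets) and HCT116 (y axis), with a grey point for each of 3157 autosomal blocks. The diamond for the protocadherin clusters has 33.6 points in RPE1 and 20.04 in HCT116, towards the upper end on both axes.

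The region was an island in RPE1, with no window above 0 on the axis nearby. Outside it, the nearest window with an RPE1 mean above 0 on the axis ended 3500 kb to the left, and the nearest on the right began 2500 kb away. Islands were taken as runs of at least 5 windows above 0 in both RPE1 sets, with 20 windows below 0 in both sets on each side and up to 2 windows left out at each edge. There were 79 on the autosomes, with a median length of 750 kb. The protocadherin island ran from 140250001 to 140800000, 550 kb, and had 0.672 and 0.574 in the RPE1 sets, values that its choice rests on. HCT116 had -0.75 there, with 0 of 11 windows above 0. A cut at 0 is not the same place for both lines. The median autosomal window of HCT116 lay at -0.379, so most of its autosomal windows fall below 0 anyway. Set 1 of RPE1 had its autosomal median at 0.092 and set 2 at 0.037. The share of all HCT116 windows above 0 was not counted. Of the other 78 islands, 38 had an HCT116 mean above 0 and 40 below, with a median of -0.03, and 15 were lower than the protocadherin island. The split went with length, which ran from 250 to 8800 kb. All islands longer than 1350 kb were above 0 in HCT116, and most of those of 750 kb or less were below 0. A mean below 0 in HCT116 was thus usual for islands as short as this one. Library B of HCT116 held 48.1% of the protocadherin island, and more than that in 16 of the other 78, whose median was 41.6%. Nearly all of those 16 were 750 kb or shorter, so a high share of B was not particular to the protocadherins among short islands.

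Read depth over the clusters was close to the autosomal median in every set. With the libraries of a set weighted equally, the 15 windows had 1.02 and 1.08 times that median in RPE1 and 0.997 times in HCT116, and the flanks had 1.04, 1.14 and 0.977 times. The middle 5 windows had 1.15, 1.11 and 1.06 times and the first 5 had 0.864, 1.02 and 0.942 times. Few bins of 1 kb lacked reads in the clusters or in the flanks. Whether reads from similar gene copies were placed correctly was not tested. In the clusters 1 of 750 bins had 0 reads in RPE1 set 1, and 0 did in the other sets, against 0, 0 and 2 of 2000 flank bins and 6.83 to 6.99% of autosomal bins. Bins below 0.25 times the autosomal median numbered 7, 1 and 17 of 750 in RPE1 set 1, RPE1 set 2 and HCT116, against 24, 1 and 99 of 2000 in the flanks. With all libraries thinned to 6170299 reads, 73.3% of the cluster windows were still called, against 7.53% of all windows.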

How the data were processed

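The authors deposited 3 tables, each with 3 unnamed columns of unscaled whole-number read counts over 3137207 bins, almost always 1 kb long. The table names point to removal of duplicate reads. Bowtie2, SAMtools 1.2, bedtools 2.25 and hg19 are listed in the submitters' processing notes, with no role or order. Mapping settings are not given in the sources used here, and reads that map to several places could change the counts of gene copies.

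Bins were summed to windows of 50 and 10 kb (Python 3.11.15, numpy 2.4.6, pandas 2.3.3). A 50 kb window needed 25 covered bins, 50 RPE1 reads and 30 reads in each set, and a 10 kb window 0.2 times these. Libraries were scaled to the mean library total over kept windows. A pseudocount of 1 was added before log2. The sign of the axis was set by library C of RPE1 set 1 and by positive correlation between sets. Flank and cluster shares were pooled over windows, and intervals were exact binomial, carried through the scaling. The axis and call rule were tried on simulated data in which all 3 sets had the same contrast between libraries. That trial does not cover the unlike axes of the real sets, so it cannot show how the call rule does here. The members, lists and measures were chosen with earlier results of these data known. Windows and genes were named by a written rule: extremes, largest steps and called windows, and the ends and C-type genes of the clusters. The extreme 50 kb shares, the windows at the edges, PCDHGB4 and PCDHGB5 were named after their values were seen. Early, mid and late S were not compared, since no column could be given to a fraction.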

Additional observations from a re-analysis of the deposited data

Results flagged for a closer look

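Library C held more of the clusters than of the flanks in RPE1, by 35.2 points (set 1) and 19.7 points (set 2), while HCT116 had a difference of -0.429 points. This result was picked out because the sign of the HCT116 value was opposite to that of both RPE1 sets, though it has no direction beyond counting error. The difference between the lines was not tested, and the HCT116 intervals for clusters (15.4 to 17.5%) and flanks (16.2 to 17.5%) overlapped.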

How the results depend on the processing

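Of 110 alternative values, 91 stayed within the spread of the RPE1 sets, within counting error for HCT116 shares, or within 1.5 times for the share of windows called. Of the rest, 19 moved and 0 reversed. With normal ranks the mean axis was 0.215 in RPE1 and -0.70 in HCT116, and their difference was -0.91; 40% of windows were called. The clusters then lay 1.56 and 1.09 above the left and right flank in RPE1, and 0.270 and 0.401 in HCT116. A threshold of 1.5 SD called 6.67% of windows. Flanks of 500 kb gave 1.58 (left) and 1.39 (right) in RPE1, 0.256 (right) in HCT116, and share distances of 31.4 and 18.7 points. At 10 kb the distances were 34.1 and 20.6 points, and thinning to 6170299 reads gave 20.6 points in HCT116. The distance was held to a spread of 0.161 points, which is small. Depth was 1.10 times in RPE1 against windows of like axis value, and 1.09 times in HCT116 with reads summed as sequenced. The causes were not tested. Without either RPE1 set the difference of the lines was -1.30 to -1.19 SD and 73.3 to 86.7% of windows were called; calls can only grow with 1 set fewer. Removing extreme bins, using all windows, scaling by all bins, or a pseudocount of 5 moved none of the values they were tried on. No paired analysis was possible because HCT116 has 1 set and the unnamed columns cannot be matched by replicate number. Depth limits windows of 10 kb most, at a median of 97 HCT116 reads.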
